A study of Mus musculus with 4 samples.

Results

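The mouse genome holds a large family of vomeronasal type 1 receptor genes, named Vmn1r, and their state in H3K9me3 chromatin of cultured CD8+ T cells is described here. Members were the autosomal protein-coding genes of the RefSeq annotation (GRCm38.p6, the assembly that mm10 names) whose symbol is Vmn1r followed by a number. There were 228 of them among 20558 autosomal protein-coding genes, on 7 chromosomes. H3K9me3, the trimethylation of lysine 9 on histone H3, was profiled by chromatin immunoprecipitation and sequencing in 2 genotypes on a C57BL/6 background, wild type (WT) and Suv39h1 knockout (KO). Suv39h1 encodes a histone methyltransferase that lays down this mark. Both cultures were CD8+ T cells stimulated for 3 days through CD3 and CD28 in the presence of IL-2, and each gave 1 H3K9me3 library. The labels name no allele and no number of mice. Each library was analysed through the authors' list of islands, stretches of the genome called as enriched. With 1 library per genotype there are no replicates and no test between genotypes, and a gene without an island may still carry the mark below the calling threshold.

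Vmn1r receptors are G protein-coupled receptors of the vomeronasal organ, where they detect pheromones and other social odours. They signal through the G protein subunit encoded by Gnai2 and the channel encoded by Trpc2. A vomeronasal neuron transcribes a single receptor gene from its family, and the genes stand in tandem clusters that grew by repeated duplication. H3K9me3 over silent receptor genes is known from olfactory neurons, which choose among odorant receptor genes in the same way.

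Islands numbered 12371 for WT, with 5547695 reads between them, and 25424 for KO, with 10020253. Their autosomal extent was 136 Mb for WT and, 1.83 times as long, 249 Mb for KO. The depth of the whole libraries is not known here, so island reads are given within each list only. None of 8 CD8 T cell genes, among them Cd8a and Cd3e, had an island in either list. An island list does not show expression, so neither the cell type nor the loss of Suv39h1 could be checked.

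The promoter windows below, 250 bases before to 50 after a transcript start, were taken from RefSeq (GRCm38.p6), which gave one for 205 of the 228 members. In 197 of them that start is the outer bound of the gene, and in 8 it lies inside the gene. They are written 5′ to 3′ along the gene strand. The first 3 are shown because these genes had the longest cover in WT alone (Vmn1r86, chr7:13102898-13103197, minus strand), in KO alone (Vmn1r65, chr7:6010961-6011260, minus strand) and the longest stretch covered in both lists (Vmn1r71, chr7:10749489-10749788, minus strand). Each of these windows lay wholly under an island of each list named for it. Capitals mark a match on either strand to TAATTA (the homeodomain core), TATAAA (the TATA box), CACGTG (an E-box) or the EBF consensus, of which Vmn1r65 alone of the 3 has one.
Vmn1r86: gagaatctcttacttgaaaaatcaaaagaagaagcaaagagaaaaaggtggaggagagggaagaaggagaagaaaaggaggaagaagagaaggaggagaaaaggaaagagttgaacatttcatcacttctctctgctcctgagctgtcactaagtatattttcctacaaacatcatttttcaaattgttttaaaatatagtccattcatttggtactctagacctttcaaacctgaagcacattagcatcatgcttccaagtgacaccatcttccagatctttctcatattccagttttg
Vmn1r65: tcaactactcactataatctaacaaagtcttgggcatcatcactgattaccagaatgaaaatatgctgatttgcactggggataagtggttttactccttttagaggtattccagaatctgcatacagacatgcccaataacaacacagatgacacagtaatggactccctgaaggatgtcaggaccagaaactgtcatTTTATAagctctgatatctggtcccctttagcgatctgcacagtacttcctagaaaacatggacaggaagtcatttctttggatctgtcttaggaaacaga
Vmn1r71: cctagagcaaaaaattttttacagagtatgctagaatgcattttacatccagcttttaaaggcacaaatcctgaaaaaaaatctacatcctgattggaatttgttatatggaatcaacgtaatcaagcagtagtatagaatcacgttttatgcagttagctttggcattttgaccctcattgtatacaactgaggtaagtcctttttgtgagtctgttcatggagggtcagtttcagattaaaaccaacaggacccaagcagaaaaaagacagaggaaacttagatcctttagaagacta

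The next window is shown because 6 genes of the largest cluster, Vmn1r111, Vmn1r118, Vmn1r131, Vmn1r138, Vmn1r166 and Vmn1r257, have it letter for letter. The copy printed is that of Vmn1r111 (chr7:20703167-20703466, minus strand). It holds none of the 4 motifs, and no island lay over any of the 6 genes in either list.
Vmn1r111: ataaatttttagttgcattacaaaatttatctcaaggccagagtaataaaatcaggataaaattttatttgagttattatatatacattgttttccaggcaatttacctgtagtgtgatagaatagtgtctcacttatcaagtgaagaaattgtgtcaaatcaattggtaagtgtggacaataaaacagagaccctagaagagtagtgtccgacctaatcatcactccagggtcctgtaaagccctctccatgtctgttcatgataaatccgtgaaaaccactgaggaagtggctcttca

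Vmn1r12 (chr6:57158670-57158969, plus strand) and Vmn1r14 (chr6:57233189-57233488, plus strand) lie in the same cluster, with windows 91.3% identical. They are shown because a WT island covered the first window and a KO island the second. The start behind the Vmn1r14 window lies 7.28 kb inside the gene bounds, so this window is not at the outer end of that gene. This pair was chosen after its values were seen. Here capitals mark the bases that did not match in a global alignment of the pair.
Vmn1r12: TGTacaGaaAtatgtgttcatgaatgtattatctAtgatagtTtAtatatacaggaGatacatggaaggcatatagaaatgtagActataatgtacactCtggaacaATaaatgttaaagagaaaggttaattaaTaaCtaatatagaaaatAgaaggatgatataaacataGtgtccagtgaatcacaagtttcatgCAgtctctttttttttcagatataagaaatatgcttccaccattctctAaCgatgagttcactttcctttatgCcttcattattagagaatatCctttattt
Vmn1r14: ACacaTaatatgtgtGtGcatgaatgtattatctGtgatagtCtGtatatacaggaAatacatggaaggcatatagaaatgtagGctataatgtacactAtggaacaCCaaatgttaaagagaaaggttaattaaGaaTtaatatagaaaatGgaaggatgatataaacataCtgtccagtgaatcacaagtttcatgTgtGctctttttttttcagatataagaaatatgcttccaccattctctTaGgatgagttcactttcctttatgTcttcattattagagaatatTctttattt

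The most alike pair that differed in island status was Vmn1r45 (chr6:89940458-89940757, minus strand), with no island, and Vmn1r51 (chr6:90122393-90122692, plus strand), with a KO island over the gene but not over this window. Their windows were 93.3% identical, and the capitals are used as in the pair before.
Vmn1r45: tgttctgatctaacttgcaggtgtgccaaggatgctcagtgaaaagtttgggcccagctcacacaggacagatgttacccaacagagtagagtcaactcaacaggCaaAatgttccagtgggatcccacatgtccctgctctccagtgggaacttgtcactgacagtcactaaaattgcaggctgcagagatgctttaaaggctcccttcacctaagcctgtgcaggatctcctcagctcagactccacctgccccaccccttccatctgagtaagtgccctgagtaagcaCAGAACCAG
Vmn1r51: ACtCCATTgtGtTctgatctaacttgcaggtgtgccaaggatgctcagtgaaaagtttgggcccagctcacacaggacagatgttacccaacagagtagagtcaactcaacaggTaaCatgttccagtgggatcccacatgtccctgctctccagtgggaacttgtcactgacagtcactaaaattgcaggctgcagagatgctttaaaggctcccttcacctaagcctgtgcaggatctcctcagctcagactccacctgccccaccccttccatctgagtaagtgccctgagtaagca

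More Vmn1r genes had an island in the KO list than in the WT list, an order that turned around when the KO list was reduced to the WT number of islands. A gene was counted when at least 1 bp of the gene with 2 kb on each side lay under an island. In WT 40 of 228 members (17.5%, exact 95% binomial interval 12.8 to 23.1) had an island, against 14.8% of all autosomal protein-coding genes. In KO 64 members (28.1%, 22.3 to 34.4) had one, against 14.5%. By this count the WT share was near that over all genes, and the KO share was above it. By sequence, islands covered 12.4% of the merged member regions in WT and 19.6% in KO, beside 4.47% and 6.71% over the regions of all these genes. The members are short, with a median gene length of 924 bp beside 17578.5 bp over all, and longer genes have more sequence for an island to touch. The intervals count genes only and treat neighbours as independent.

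Members with islands in both lists numbered 27 (11.8%, against 8.03% of all genes). In WT alone 13 members had an island (5.70%, against 6.77%), and in KO alone 37 (16.2%, against 6.52%). The remaining 151 had none. With the KO list reduced to its 12371 islands with most reads, 34 members had a KO island (14.9%, against 8.89% of all genes), so KO minus WT went from 24 to -6 genes. There, 13 members had both (5.70%, against 5.34%), 27 a WT island alone (11.8%, against 9.46%) and 21 a KO island alone (9.21%, against 3.55%). Keeping the KO islands with most reads per kb gave 36 members (15.8%, against 9.51%) and a difference of -4, with 23 in WT alone (10.1%, against 8.8%) and 19 in KO alone (8.33%, against 3.51%). Both settings drop KO islands alone and can only lower the KO count. Counting just the islands denser in reads than the median of their list, 19 members had a WT island (8.33%, against 9.48%), 37 a KO island (16.2%, against 9.62%) and 9 both (3.95%, against 4.45%).

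Most members with an island had the whole gene under it, in both lists. A Vmn1r coding sequence is short, with a median annotated length of 924 bp, and 199 of the 228 gene models have a length that is a multiple of 3, as models without untranslated regions have. Of the 40 members with a WT island, 23 had the gene wholly inside it, 8 in part, and 9 had an island in the flanks alone. Of the 64 with a KO island these numbers were 42, 11 and 11. Islands over members were mostly many times longer than the genes. An island that long, once it touches a gene or its flanks, will often hold the whole gene wherever it is placed. These counts therefore cannot show that islands favoured the genes over their flanks, and this was not tested. When at least 50% of the gene region had to be covered, 25 members counted in WT (10.96%, against 2.75% of all genes) and 45 in KO (19.7%, against 3.41%). In both lists 15 counted (6.58%, against 0.895%), in WT alone 10 (4.39%, against 1.86%) and in KO alone 30 (13.2%, against 2.52%). Member genes are short, with this median of 924 bp beside 17578.5 bp over all genes. A single island covers 50% of a short region more readily, so these shares compare regions of unlike length. The part of length in the gap was not tested. Only 1 island in either list lay over more than 1 member, a KO island at chr7:12179001-12195000 that touched Vmn1r79 and Vmn1r80.

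Islands over members were close in length and density to the rest of their list. Their median length was 11 kb for WT and 9.5 kb for KO, beside 10 kb and 9 kb over all autosomal islands. Their density ranged from 35.2 to 50 reads per kb in WT, with a median of 40.3, and from 35.5 to 53.6 in KO, with a median of 40.7. The medians over all autosomal islands were 40.4 and 40.1. Members with islands in both lists shared bases in all 27 cases, 79.4 kb in all out of 112 kb covered in WT and 107 kb in KO. Cover was longer in WT for 11 of them, longer in KO for 10 and equal for 6.

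**Figure D1:**
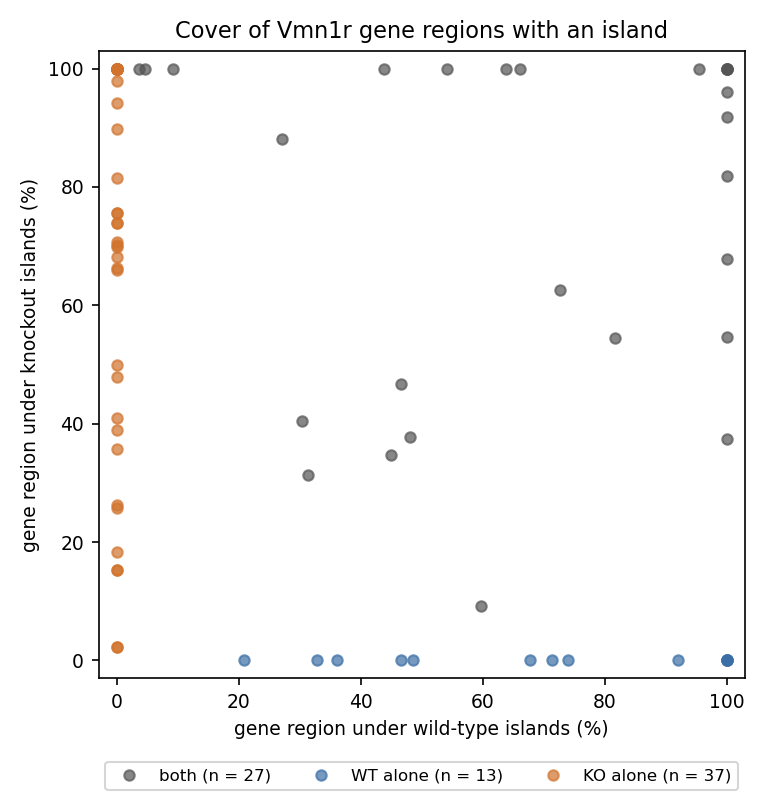
Percent of each gene region (gene with 2 kb on each side) under WT islands (horizontal) and KO islands (vertical) for the 77 members with an island in either list, 1 point per gene. The 13 WT-alone genes lie on the horizontal axis, the 37 KO-alone genes on the vertical axis, and the 27 genes in both spread between.

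Of the members with an island in both lists, 4 had their whole region covered in both. Vmn1r71 (chr7:10747502-10749538) lay under a WT island of 435 reads at chr7:10744501-10755000 and a KO island of 394 reads at chr7:10743001-10753000. Vmn1r213 (chr13:23011249-23012403) lay under a WT island of 636 reads and a KO island of 444 reads. Vmn1r6 and Vmn1r21, named here after their values were seen, completed the set, and for both the WT and KO islands began at the same position.

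Other members in both lists differed in length. Vmn1r4 (chr6:56923914-56957608), whose gene model is the longest of the family, had 22.5 kb under a WT island and 3.5 kb under a KO island. Neither island reached its promoter window, whose start lies 32.6 kb inside the gene bounds. The order of WT and KO cover at Vmn1r4 turned around among islands above the median density. The WT and KO cover of Vmn1r235 was 6.44 and 4.36 kb, that of Vmn1r16 5.64 and 3.76 kb and that of Vmn1r80 4.93 and 4.04 kb, orders that turned around in that same setting. Vmn1r26 had 5.02 and 4.82 kb, an order that turned around there and with flanks of 10 kb. Vmn1r180 had 4.97 kb for WT and 1.86 kb for KO.
Longer KO cover was seen at Vmn1r228 (0.501 kb in WT, 5.44 kb in KO), an order that turned around above the median density and with flanks of 10 kb. At Vmn1r81 (0.179 and 4.92 kb) and Vmn1r39 (1.33 and 4.33 kb) KO cover was longer too, an order that turned around with the reduced KO list. Vmn1r89 had 3.16 and 4.95 kb, and Vmn1r50 4.71 and 4.93 kb.

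In KO alone, Vmn1r65 (chr7:6007750-6011010) had its whole 7.26 kb region under an island of 344 reads, and Vmn1r66 (chr7:10273828-10275351) its whole 5.52 kb region under one of 414 reads. The nearest WT island was 74.8 kb from Vmn1r65 and 469 kb from Vmn1r66. Vmn1r30 had 6.12 kb, Vmn1r44 5.71 kb, Vmn1r5 5.17 kb and Vmn1r181 5.09 kb. The Vmn1r30 island did not reach the promoter window of that gene, whose start lies 7.78 kb inside the gene bounds. Vmn1r184 and Vmn1r185, which stand apart from the large clusters on chromosome 7, had 3.28 and 3.38 kb. Above the median density Vmn1r5, Vmn1r30, Vmn1r44 and Vmn1r185 had no island, and with the reduced KO list Vmn1r5 and Vmn1r65 had none.

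In WT alone, Vmn1r86 (chr7:13101997-13102947) had its whole 4.95 kb region under an island of 527 reads. Vmn1r12 (4.92 kb), Vmn1r35 (4.89 kb) and Vmn1r237 (4.87 kb) were also covered throughout, while Vmn1r19 had 4.54 kb and Vmn1r236 3.65 kb. Above the median density Vmn1r12, Vmn1r35 and Vmn1r237 had no island. A KO island lay within 20 kb of 11 of the 13 WT-alone genes, with a median distance of 10.7 kb. A WT island lay within 20 kb of 14 of the 37 KO-alone genes, with a median distance of 28.9 kb. The KO list is the longer one, and the part of its length in these distances was not tested.

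The share of members with an island ranged widely over the clusters. A cluster was a run of members with at most 500 kb between neighbours, and 10 clusters of 3 or more held 221 of the 228 members. More members had an island in KO than in WT in 8 clusters, fewer in 1 and as many in 1. With the KO list reduced by reads, KO was ahead in 3 clusters.

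WT cover was highest, in genes and in sequence, in the first cluster of chromosome 6, on chromosome 17 and in a small cluster on chromosome 7. The cluster from Vmn1r4 to Vmn1r31 (chr6:56923914-58472878) had islands over 12 of 28 members in WT and 14 in KO, with 17.6% and 21.1% of its span covered. The cluster from Vmn1r224 to Vmn1r237 (chr17:20419163-21314886) had 8 of 14 in each list, of which 4 were the same genes, and 22.1% and 26.3% of the span. On this cluster the first genes, Vmn1r224 and Vmn1r225 (chosen after their values were seen), had KO islands alone, and the last, Vmn1r236 and Vmn1r237, had WT islands alone. Of all genes, 14.8% were touched in WT, 14.5% in KO and 8.03% in both lists. Those touched in WT alone made up 6.77%, and in KO alone 6.52%. Genes found in a single list are therefore not particular to this cluster. The cluster from Vmn1r85 to Vmn1r89 (chr7:13084289-13220289) had 4 of 5 in WT and 3 in KO, with 29.8% and 26.7%, the 1 cluster of these 10 with more cover in WT.

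In 4 clusters the KO cover of the span was over 3 times the WT cover. Beside the gene counts that follow stand 14.8% of all genes for WT and 14.5% for KO. The cluster from Vmn1r72 to Vmn1r84 (chr7:11669599-12362764) had WT islands over 4 of 13 members and KO islands over 8, and 8.94% and 32.8% of its span covered, a ratio of 3.67. The cluster from Vmn1r188 to Vmn1r223 (chr13:22087878-23250323) had 3 and 8 of 35, and 4.60% and 16.1%, a ratio of 3.50. The cluster from Vmn1r55 to Vmn1r65 (chr7:5146490-6011010) had 0 and 3 of 11, and 3.35% and 15.7%, a ratio of 4.67. For Vmn1r66 to Vmn1r71 (chr7:10273828-10749538) the values were 1 and 2 of 6, and 1.06% and 11.2%, a ratio of 10.6. The WT cover behind this ratio was 5.04 kb, from 1 island that runs past the end of the span. In the 500 kb on each side the ratio was 1.05 for Vmn1r72 to Vmn1r84, 0.963 for Vmn1r188 to Vmn1r223, 3.41 for Vmn1r55 to Vmn1r65 and 6.55 for Vmn1r66 to Vmn1r71, so beside the last 2 the KO cover was also over 3 times the WT cover. These ratios stand beside 1.83 over all autosomes, 1.20 for the Vmn1r4 to Vmn1r31 cluster and 1.19 for the chromosome 17 cluster.
The other clusters of chromosome 6 lay between. Vmn1r32 to Vmn1r39 (chr6:66552183-66805332) had 2 and 3 of 8 members, and Vmn1r40 to Vmn1r54 (chr6:89711261-90270053) 3 and 7 of 15, with span ratios of 1.53 and 2.60. The shares over all genes were 14.8% for WT and 14.5% for KO. Of the 7 members outside these clusters, Vmn1r184 and Vmn1r185 had KO islands and the other 5 had none.

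**Figure D2:**
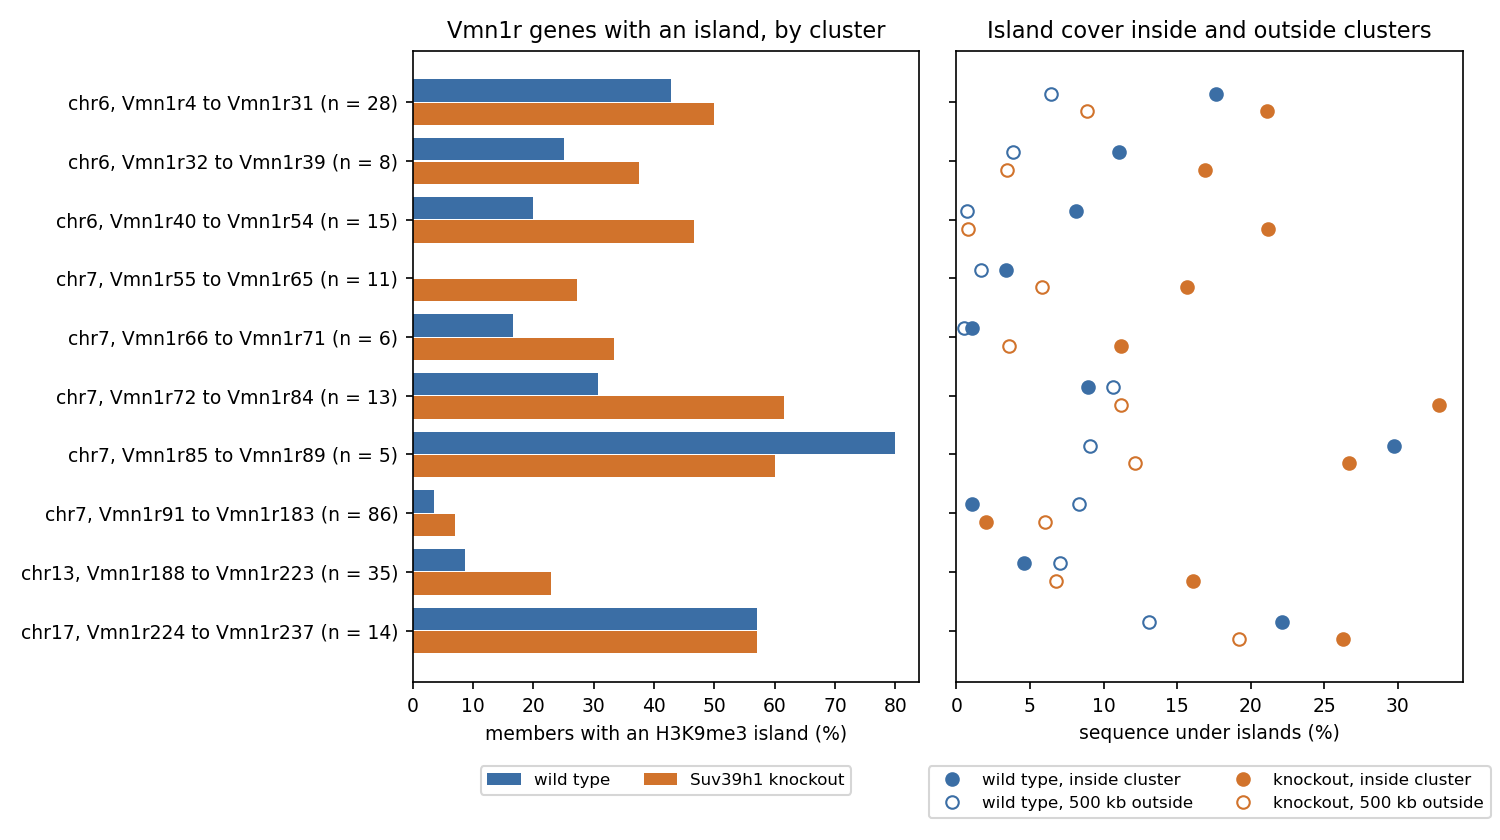
Left, percent of members with an island in WT and KO for the 10 clusters of 3 or more (n is the number of members). Right, percent of sequence under islands inside each cluster span (filled) and in the 500 kb on each side of it (open). On the left KO bars exceed WT bars in 8 clusters, or in 3 with the KO list reduced to the WT number by reads. On the right KO cover inside exceeds WT cover in 9 clusters, and the cluster of 86 genes has the lowest cover inside.

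Inside the cluster spans KO islands covered more sequence than in the 500 kb on each side, and WT islands little more. Over the 10 spans, 10.5 Mb in all, WT islands covered 7.36% and KO islands 13.7%, beside 6.15% and 7.79% of the 500 kb on each side. Without the largest cluster these values were 11.2% and 20.7% inside, and 5.90% and 7.98% outside. With 100 kb on each side in place of 500 kb, the outer values were 10.8% in WT, above the value inside the 10 spans, and 11.6% in KO, below it. Among islands above the median density, WT cover was 3.46% inside and 3.60% outside. Inside the spans, the member regions were covered more than the sequence between them, at 12.3% against 6.72% in WT and 19.0% against 13.03% in KO. The order KO above WT inside the spans held with the KO list reduced, at 8.40%. Over the merged regions of all 228 members, not cut to the spans, that order turned around, from 19.6% against 12.4% to 11.8% in KO.

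**Figure D3:**
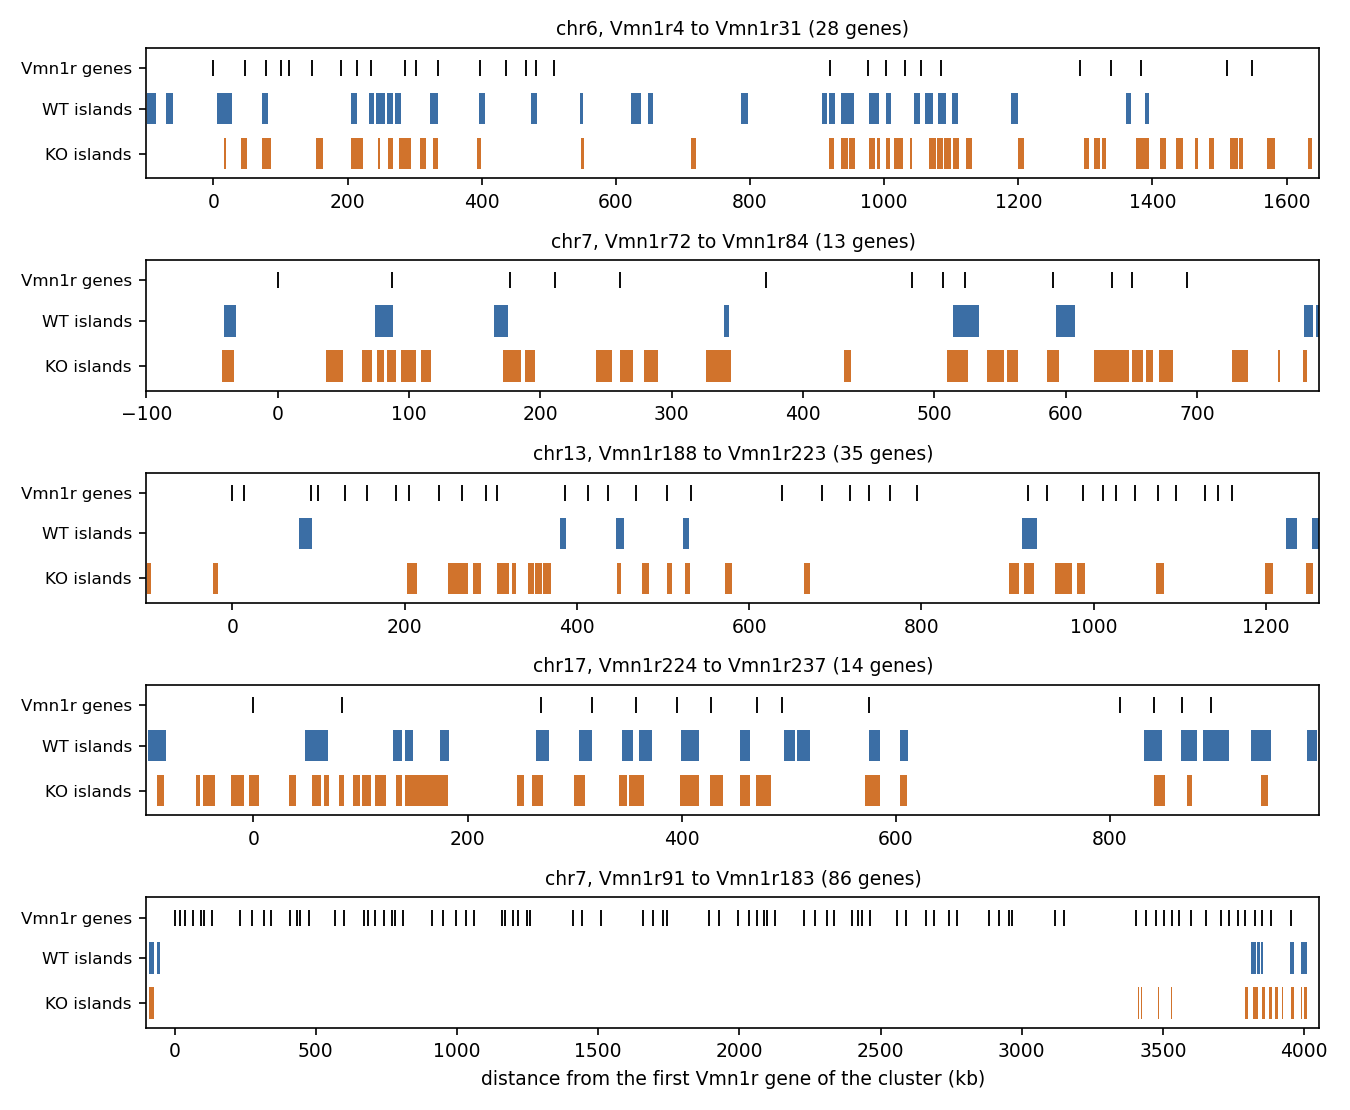
Vmn1r genes (ticks, at the gene start), WT islands (blue) and KO islands (orange) along 5 clusters, as distance in kb from the first member, with 100 kb outside each end. WT and KO islands lie at many of the same places in the chromosome 6 cluster, KO islands outnumber WT islands in the Vmn1r72 to Vmn1r84 cluster, and inside the cluster of 86 genes the islands of both lists lie towards its far end.

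Around the transcript starts of the 205 members with a promoter window, WT cover was highest in the kilobases upstream and KO cover close to the start. The mean over 1 kb bins within 2 kb of the start was 11.9% in WT and 19.4% in KO. At 10 to 20 kb from the start it was 6.15% in WT and 12.6% in KO. The KO curve did not fall steadily upstream, with 9.49% at 10 to 11 kb and 15.3% at 19 to 20 kb. The highest WT bin lay 2 to 3 kb upstream, at 13.2%, and the highest KO bin in the last 1 kb before the start, at 19.6%. Neighbouring members contribute to each other's outer bins.

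**Figure D4:**
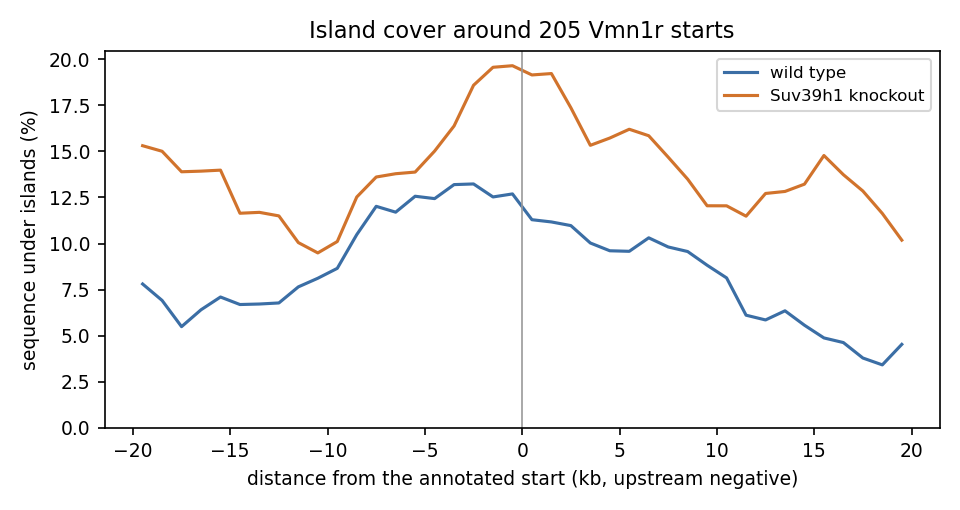
Percent of sequence under WT (blue) and KO (orange) islands in 1 kb bins from 20 kb upstream to 20 kb downstream of the transcript start, over 205 Vmn1r genes. The WT curve peaks 2 to 3 kb upstream at 13.2% and the KO curve just before the start at 19.6%, and KO cover rises again to 15.3% at the upstream edge.

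The largest cluster was almost without islands. It runs from Vmn1r91 to Vmn1r183 (chr7:20101158-24055691) and holds 86 members, 37.7% of the family. A WT island lay over 3 of these (3.49%) and a KO island over 6 (6.98%), beside 14.8% and 14.5% of all genes. From chr7:20049001 to chr7:23513500, 3.46 Mb with 71 members, neither list held an island. This is the 6th longest of 31071 stretches between autosomal islands. The 6 genes with islands, Vmn1r171, Vmn1r178, Vmn1r179, Vmn1r180, Vmn1r181 and Vmn1r183, stand among the 15 members beyond it. Of these, Vmn1r171, Vmn1r178, Vmn1r179 and Vmn1r183 are named after their values were seen. Without this cluster, 37 of 142 members (26.1%) had a WT island and 58 (40.8%) a KO island.

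Most genes of the empty stretch have promoter windows nearly identical to that of another member. Of the 69 promoter windows known there, 67 were at least 95% identical to that of another member and 52 identical to one. The exceptions included Vmn1r148, named after its values were seen, at 65.3%. Over the family, none of the 83 members at 95% or more had an island in either list. Over all genes 14.8% had one in WT and 14.5% in KO. This identity counts a shift between windows as mismatches, so alike copies can fall under 95%. Vmn1r51, at 93.3% to the shifted window of Vmn1r45, had a KO island. From 90 to under 95%, 2 of 17 had one in WT and 4 in KO. From 80 to under 90%, 6 of 21 had one in WT and 10 in KO, and under 60%, 12 of 34 and 16. Outside the largest cluster the pattern was alike, with 0 and 0 of 10 members at 95% or more, and 12 and 14 of 32 under 60%.
Counted by 50-base words shared letter for letter with another member's window, WT islands touched 34 of the 93 members with none shared and KO islands 48. Of the 71 members with at least 50% of words shared, 0 had an island in WT and 1, Vmn1r51, in KO. Reads from identical copies cannot be assigned to a single place, and how the authors treated such reads is unknown here. The part of this in the missing islands was not tested. Leaving out the 83 members, 40 of 145 (27.6%) had a WT island and 64 (44.1%) a KO island, beside 14.8% and 14.5% of all genes. Neither order was tried with the reduced KO list.

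**Figure D5:**
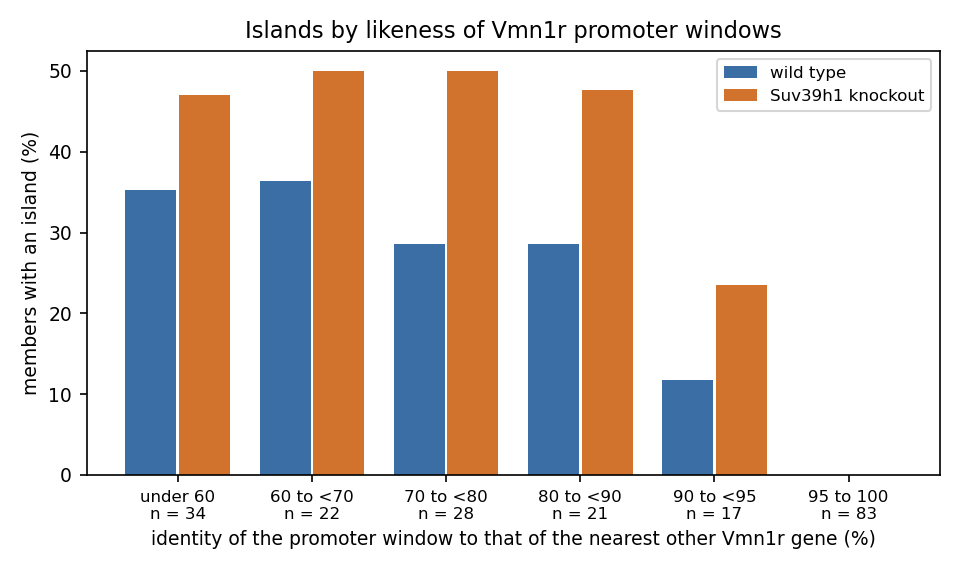
Percent of members with an island in WT and KO, by the identity of the 300-base promoter window to that of the nearest other member (205 members, n under each pair of bars). No member at 95% or more has an island, against 35.3% in WT and 47.1% in KO under 60%. The identity counts a shift between windows as mismatches. With the KO list reduced to the WT number, the order of KO and WT over all members turned around.

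Pseudogenes of the family no longer encode a receptor. Of 137 autosomal pseudogenes named Vmn1r, WT islands touched 13 (9.49%) and KO islands 33 (24.1%), beside 14.8% and 14.5% of all protein-coding genes, so the WT share was below that over all genes and the KO share above it. KO minus WT was 20 pseudogenes, and 10 with the KO list reduced by reads.
Of 37 other protein-coding genes inside the cluster spans, 7 had a WT island (18.9%) and 8 a KO island (21.6%), the latter 4 with the reduced list. Over all genes the shares were 14.8% and 14.5%. On chromosome 17 these included the vomeronasal type 2 receptor genes Vmn2r109 (14.8 kb in WT, 16.2 kb in KO) and Vmn2r110 (4.76 and 26.4 kb), which encode receptors of another vomeronasal family, and Vmn2r108 (15.7 and 8.5 kb). In the first cluster of chromosome 6, Lancl2 had 11 kb in WT alone and the ubiquitin ligase gene Herc6 0.509 kb in WT and 7 kb in KO. Nlrp2, of a family of innate sensor genes, had 6.5 and 6 kb on chromosome 7, and V1rd19, listed under an older receptor name, 4.92 kb in KO alone. On chromosome 13, Vmn1r-ps103, annotated as protein-coding, had 4.74 kb in KO alone.

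Set beside the other large chemosensory families, a smaller share of Vmn1r genes had an island, in both lists. Of 121 Vmn2r genes WT islands touched 44 (36.4%) and KO islands 64 (52.9%), and of 1099 olfactory receptor (Olfr) genes 289 (26.3%) and 517 (47.0%), beside 14.8% and 14.5% of all genes. By sequence the WT gap to Vmn2r was small, with 12.4% of Vmn1r regions covered, 12.7% of Vmn2r and 19.2% of Olfr regions. In KO these values were 19.6%, 23.4% and 32.3%. Without the largest cluster, Vmn1r cover was 17.1% in WT and 26.97% in KO, above that of Vmn2r and below that of Olfr in both lists. Vmn2r regions are longer, with 3666 kb merged over 121 genes beside 1266 kb over the 228 Vmn1r genes. A longer region is touched more readily, and the part of length in the counts was not tested. KO minus WT was 0 for Vmn2r and 52 for Olfr genes with the KO list reduced. The families differ in how alike their members are. Windows at least 95% identical to another of the same family made up 83 of 205 in Vmn1r, 35 of 115 in Vmn2r and 22 of 934 in Olfr. Without those members the shares were 27.6% and 44.1% in Vmn1r, 26.7% and 47.7% in Olfr, and 47.7% and 62.8% in Vmn2r. No test of the difference between families was made.

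From a list of 32 genes that work with chemosensory receptors, 7 had a WT island and 5 a KO island, the latter 2 with the reduced KO list. Over all genes 14.8% and 14.5% had one, and nothing particular to the list is read from these counts. The 12 signalling genes included Gnai2, Gnao1 and Trpc2 without an island. The 2 with islands were Ano2, a calcium-activated chloride channel gene (12.5 kb in WT, 28 kb in KO), and Kcnj3, a potassium channel gene (11 and 79.1 kb). None of the 4 vomeronasal formyl peptide receptor genes Fpr-rs3, Fpr-rs4, Fpr-rs6 and Fpr-rs7 had one. Of 16 genes linked to receptor choice or silencing in chemosensory neurons, 5 had islands in WT and 3 in KO. The transcription factor genes Ebf1 (10.5 and 6 kb) and Meis2 (11 and 9 kb) had them in both. Emx2 (3.86 kb) and Neurog1 (1.02 kb), also transcription factor genes, and the ubiquitin ligase gene Rnf220 (10.5 kb) had them in WT alone, and Ebf2 (8.5 kb) in KO alone.

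The promoter windows of Vmn1r genes were poor in G and C, with a median of 36% beside 53% over 31396 autosomal windows. TATAAA was found on either strand in 42.4% of 205 member windows, or 37.7% of the 122 outside the largest cluster, beside 13.6% of all. It was in 47.3% of the 55 member windows touched by an island in either list and in 31.9% of the 72 without one outside the largest cluster. The 55 include windows of the largest cluster, so these sets are not alike. TAATTA was in 7.32% of all member windows and in 12.3% of those outside the largest cluster, beside 5.265% of all. CACGTG was in 1 member window, beside 7.14% of all, and the EBF consensus in 0, beside 0.920%. CANNTG, which includes CACGTG, was in 82.0% of all member windows, in 71.3% of those outside the largest cluster and in 72.2% of all autosomal windows. These are matches of letters and say nothing of binding.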

How the data were processed

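Of the 4 libraries, the 2 H3K9me3 libraries (WT and KO) were analysed, grouped by their titles, and the 2 inputs were not used here. Bowtie2, SICER 1.1 and mm10 appear in the submitters' processing notes. Not given in the sources used here: island settings, duplicate handling, the treatment of reads with several positions and the use of the input. The deposited lists hold 1 whole-number count per island, read here as ChIP reads from the authors' calling, with no scaling to depth or input. Island edges fall every 500 bp, and positions were converted to count from 1.

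Genes came from the RefSeq table of GRCm38.p6, without 363 genes on scaffolds, recognised by their order in the table. Cover, clusters and promoter identity (edit distance over 300 bases) were computed with Python 3.11.15, pandas 2.3.3 and edlib 1.3.9.post1, and checked on simulated data. Protein identity, planned, was replaced by promoter identity because protein sequences were not used here. The members, lists and tests were chosen with earlier results of these data known. Named members were the 6 with the longest cover in each list and in each list alone, the longest of each cluster, and those outside clusters with an island, with the pathway genes that had an island and the longest-covered other genes of each cluster. Intervals are exact binomial. No test between genotypes was possible with 1 library each.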

Additional observations from a re-analysis of the deposited data

How the results depend on the processing

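No paired analysis was possible because there was 1 library of either genotype. With the KO list reduced to the WT number by reads, 34 members had a KO island, with 27 in WT alone, 21 in KO alone and KO minus WT at -6. In that setting KO minus WT was 0 for Vmn2r genes, 52 for Olfr genes (341 in KO), 10 for pseudogenes, -3 for other genes in the clusters (4 in KO) and -5 for pathway genes (2 in KO). KO was ahead in 3 clusters, KO region cover was 11.8% and its difference -0.515 points, and KO cover was 8.40% inside spans and 4.29% outside. Reduced by reads per kb, chosen after the data were seen, the values were 36 in KO, 23 in WT alone, 19 in KO alone and -4. The reduction drops KO islands alone and can only lower KO counts, and no cause of the difference between the lists was tested.

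Counting just the denser islands (over the median density of their list), 19 members had one in WT and 37 in KO, 26 Vmn2r genes in WT, and 150 and 293 Olfr genes, a difference of 143. Region cover was then 4.65% and 10.8%, span cover 3.46% and 7.58%, and outer cover 3.60% and 4.51%. With at least 50% of the region covered, 25 members counted in WT. With flanks of 10 kb, 442 Olfr genes in WT, 22 and 62 pseudogenes (difference 40), a difference of 0 in other genes, and 8 KO pathway genes (difference -1) counted. Without flanks, region cover differed by 4.36 points. The outer WT cover was 10.8% with 100 kb flanks. Without the largest cluster, added after the data were seen, span cover was 11.2% and 20.7%. Without near-identical promoters, also added then, the Vmn2r difference was 13. At 95% in place of 90% identity, the members with islands went from 2 in WT and 4 in KO to 0 and 0. The cause of these shifts was not tested.

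Of single genes, KO minus WT cover turned around above the median density at Vmn1r16 (3.76 kb), Vmn1r26 (4.82 kb), Vmn1r235 (4.36 kb), Vmn1r4 (3.5 kb), Vmn1r80 (4.04 kb) and Vmn1r228 (-0.501 kb). It did so with 10 kb flanks at Vmn1r26 (4.02 kb) and Vmn1r228 (-0.501 kb), and with the reduced KO list at Vmn1r39 (-1.33 kb) and Vmn1r81 (-0.179 kb). Merging islands under 5 kb apart turned around none of the values tried, and protein identity was not run. What depth limits cannot be given without library totals.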
